A study of Mus musculus with 6 samples.

Results

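The RNA exosome genes described here are *Exosc1*, *Exosc2*, *Exosc3*, *Exosc4*, *Exosc5*, *Exosc7*, *Exosc8*, *Exosc9*, *Exosc10* and *Dis3*, which were 10 of the 12134 genes in the splicing tables. They were chosen by name, as the subunits of the exosome ring and cap and its nucleases, and every intron and transcript listed for them was used. The cells were E14 mouse embryonic stem cells (129/Ola background) grown with serum and LIF. They were transfected with a control siRNA or with a siRNA against *Son*, 24 h after seeding, and RNA was extracted 24 h later. Total RNA depleted of rRNA was sequenced from 2 samples of each treatment. Nanopore long reads came from cDNA of polyadenylated RNA, 1 sample per treatment. The labels do not say whether the replicates were separate cultures, so p-values measure the spread between these samples, which may be technical.

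The exosome is a 3′ to 5′ RNA decay machine. Exosc4 to Exosc9 form a barrel without nuclease activity of its own, Exosc1, Exosc2 and Exosc3 form an RNA-binding cap on it, and the nucleases Dis3 and Exosc10 degrade RNA that is threaded through or reaches the complex. In the nucleus it trims rRNA and small RNA precursors and removes faulty or unspliced transcripts, and in the cytoplasm it degrades mRNA handed over by the SKI complex. Son is a nuclear speckle protein that promotes the splicing of introns with weak splice sites.

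The siRNA target was measured first. Spliced *Son* reads, counted as split reads at 5′ junctions and scaled to library size (CPM, with TMM), stood at 283 and 314 CPM in control and at 93.5 and 102 after *Son* siRNA. *Son* fell by 1.61 on the log2 scale (SE 0.087, edgeR quasi-likelihood test, Benjamini-Hochberg adjusted p = 3.72e-10), and in long reads it was at 70.4 CPM in the control and 19.7 CPM in the *Son* siRNA library. Depth ranged from 10556187 to 16012286 split reads at 5′ junctions per total RNA library. The long-read libraries held 3080426 (control) and 1874851 (*Son* siRNA) reads. Of 12 embryonic stem cell markers 11 were listed, with a summed level of 5596 to 5857 CPM per library, while fibroblast markers summed to 1.16 to 2.17 CPM. *Sox2*, which has no intron, could not be listed. Because bulk RNA was sequenced, fewer cells of a type and less RNA per cell cannot be told apart.

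Splicing of the exosome genes was examined at 62 introns with enough reads out of 66 listed in any library, from 131 annotated. The splicing efficiency of an intron is the share of reads across its 2 junctions that are split, that is, spliced. Split and unsplit counts are summed over both junctions, so a spliced read can be counted at each. Changes are given as the log2 odds ratio of unsplit to split reads in *Son* siRNA over control samples, so a value above 0 means lower efficiency after *Son* siRNA. None of the 62 exosome introns passed an adjusted p of 0.05 in edgeR's quasi-likelihood test (smallest adjusted p = 0.138), where 1.76% of the 63309 introns tested in all genes passed 1.71% towards lower and 0.0442% towards higher efficiency. DESeq2 and limma called 0 exosome introns too, with 3 and 4 at an unadjusted p under 0.05, but they called only 0.45% and 0.0% of all introns. The median log2 odds ratio of the exosome introns was 0.03 with a range from -1.35 to 2.25, beside a median of 0.12 over all introns, and 33 lay above 0 and 29 below.

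Exosome introns were efficiently spliced in control cells. Their median efficiency was 0.948, beside 0.933 over all introns, and 46 of the 62 were at 0.9 or above. They were shorter than the average intron, with a median length of 775 nt (81 to 3858 nt) beside 1128 nt. Across the series, 6.52% of the shortest introns, those of up to 283 nt, passed towards lower efficiency. The 15 exosome introns in that class had a median log2 odds ratio of 0.09, beside 0.43 for all introns of the class, and 10 of them lay above 0. In 26 exosome introns the libraries of the groups did not overlap, which is 41.9% of them beside 37.3% of all introns. Of these, 19 lay towards lower and 7 towards higher efficiency. Over all introns the direction was also uneven, with 24.3% lower in the *Son* siRNA libraries without overlap.

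**Figure D1:**
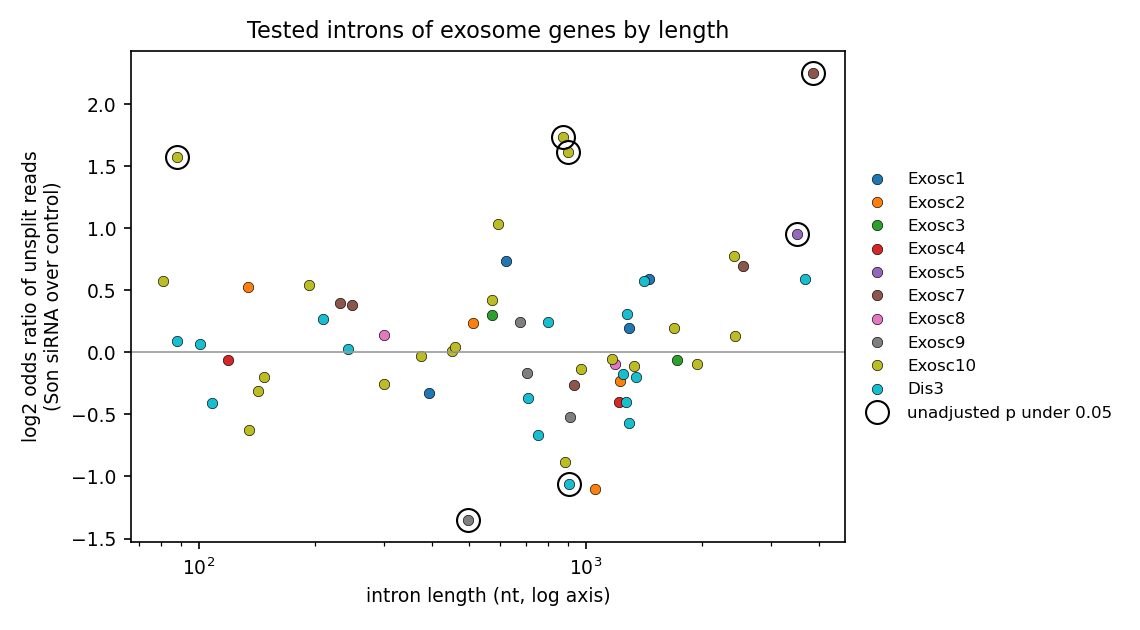
Each point is 1 of the 62 tested introns of the exosome genes, placed by its length (log axis, nt) and by the log2 odds ratio of unsplit reads in *Son* siRNA over control samples, coloured by gene. Short and long introns lie on both sides of 0, and the 7 circled introns have an unadjusted p under 0.05.

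The 7 introns with an unadjusted p under 0.05 made up 11.3% of those tested, where 9.72% of all introns reached it. Of these, 5 lay towards lower efficiency, which 8.11% of all introns did, and 2 towards higher, which 1.61% did. They were singled out after their values were seen. Exosc10, the nuclear 3′ to 5′ exonuclease of the complex, held 3 of them, all in its main coding transcript ENSMUST00000017408. Its intron 16 (GRCm39 chr4:148657647-148657734, 88 nt) had unsplit reads of 4 and 11 in control and 16 and 17 in *Son* siRNA libraries, and efficiencies of 0.997, 0.989, 0.984 and 0.979. Both *Son* siRNA libraries were below both controls, although nearly all reads were split in each. The log2 odds ratio was 1.57 (SE 0.54, adjusted p = 0.138).

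*Exosc10* intron 21 (chr4:148663915-148664815, 901 nt) went from efficiencies of 0.972 and 0.975 to 0.928 and 0.912, without overlap between the groups. Its log2 odds ratio was 1.62 (SE 0.61, adjusted p = 0.218). The neighbouring intron 20 (chr4:148662963-148663837, 875 nt) had efficiencies of 0.984 and 0.993 in control and 0.949 and 0.967 in *Son* siRNA libraries, from 1 to 10 unsplit reads per library. None of these introns passed the adjusted threshold.

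Exosc7, a subunit of the barrel, had the highest log2 odds ratio, 2.25 (SE 1.03, adjusted p = 0.417), at its intron 7 (chr9:122961106-122964963). That intron is the longest of the set at 3858 nt and rested on few reads. Its unsplit reads were 6 and 0 in control and 10 and 8 in *Son* siRNA libraries. Split counts over both junctions were 26 and 52 against 32 and 16, or 13 and 26 against 16 and 8 at each junction. *Exosc9* intron 4 (chr3:36608292-36608786, 495 nt) lay the other way. Its efficiencies were 0.971 and 0.953 in control and 0.985 in each *Son* siRNA library (log2 odds ratio -1.35, SE 0.60, adjusted p = 0.382). *Dis3* intron 2 (chr14:99335215-99336118, 904 nt) was also higher after *Son* siRNA, at 0.966 and 0.968 beside 0.940 and 0.924 (log2 odds ratio -1.06, adjusted p = 0.490).

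For each gene an intron was also taken by a fixed rule, as the one whose mean efficiency differed most between groups, given a minimum of 50 reads per library. Among the cap subunits, *Exosc1* intron 7 (chr19:41912528-41913149) had efficiencies of 0.926 and 0.934 in control and 0.889 and 0.886 in *Son* siRNA libraries. The groups did not overlap, and the log2 odds ratio was 0.74 (SE 0.42, adjusted p = 0.627). *Exosc2* intron 4 (chr2:31564797-31565850) was higher after *Son* siRNA, at 0.948 and 0.925 beside 0.891 and 0.855, with 6 to 11 unsplit reads per library and an adjusted p of 0.763. *Exosc3* intron 1 (chr4:45319700-45320270) overlapped between groups, with 0.901 and 0.886 beside 0.909 and 0.819.

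In the barrel, *Exosc7* intron 6 (chr9:122960016-122960949) had efficiencies of 0.717 and 0.794 in control and 0.797 and 0.780 in *Son* siRNA libraries, which overlap. *Exosc8* intron 8 (chr3:54637307-54638495) was at 0.884 and 0.873 beside 0.870 and 0.902, with 469 to 719 split reads per library. *Exosc9* intron 9 (chr3:36616314-36617221) was at 0.965 and 0.901 beside 0.942 and 0.974. None of these 3 barrel introns separated the groups. Of the 5 tested *Exosc7* introns, however, 4 separated the groups, all towards lower efficiency, as 24.3% of all introns did. *Dis3* intron 3 (chr14:99334267-99335020), by contrast, separated them towards higher efficiency, at 0.889 and 0.901 beside 0.874 and 0.800 (log2 odds ratio -0.67, SE 0.53, adjusted p = 0.822).

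Summed over the introns of a gene, splicing efficiency changed in 0 of the 10 exosome genes by the adjusted test, where 7.11% of the 9370 genes tested passed. *Exosc5* alone had an unadjusted p under 0.05, which 13.8% of all genes reached. The median gene log2 odds ratio was 0.03 for the exosome genes and 0.09 over all genes. The groups did not overlap in *Exosc1*, *Exosc5* and *Exosc7*, all towards lower efficiency, and 38.3% of all genes had groups without overlap.

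Exosc5, a barrel subunit, had an efficiency of 0.887 and 0.861 in control and of 0.764 and 0.799 after *Son* siRNA. Both *Son* siRNA libraries were below both controls. Split reads were 369 and 315 beside 279 and 259, and unsplit reads 47 and 51 beside 86 and 65. The gene's log2 odds ratio was 0.96 (SE 0.40, 95% interval 0.18 to 1.74, unadjusted p = 0.0164, adjusted p = 0.168).

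That value rests on the only *Exosc5* intron listed (chr7:25359045-25362561, 3517 nt), out of 5 in its main transcript ENSMUST00000079634. The listed intron belongs to ENSMUST00000205743, an annotated nonsense-mediated decay model, meaning a transcript whose early stop codon marks it for degradation. Its 5′ end lies 236 nt inside the first intron of the main transcript, and both share the 3′ end. The RNA letters across the exon junction tell the 2 donors apart. They are taken from GENCODE M21 transcripts (GRCm38), 15 bases on each side, with the shared downstream exon in capitals.
*Exosc5* main donor of exon 1: cttcttttcttcaagGTGATACCTCTGTCC
*Exosc5* extended donor of exon 1: actatcccagaatagGTGATACCTCTGTCC

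The extended *Exosc5* donor was rarely used. Split reads at it were 1 and 5 in control and 0 and 0 in *Son* siRNA libraries, while split reads at the shared 3′ end were 368 and 310 beside 279 and 259. The 0 counts allow shares of up to 1.08% and 1.16% (3 counts of the total, counting error only). Reads that crossed the extended donor unsplit numbered 24 and 28 in control and 48 and 35 in *Son* siRNA libraries, and those that crossed the shared 3′ end unsplit numbered 23 and 23 beside 38 and 30. At both ends of the intron, the *Son* siRNA libraries had more unsplit reads than the controls. The *Exosc5* efficiencies given here include the unsplit reads at this little-used donor, which lowers them in every library. On the 3′ junction alone, the intron's log2 odds ratio was 0.89 (edgeR quasi-likelihood test, adjusted p = 0.646).

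The genes whose efficiencies were most like *Exosc5* over the 4 libraries, by root-mean-square difference among 9369 other genes, were *Gm14124* (0.0163), *Carmil2* (0.0169) and *Eral1* (0.0172). *Eral1* had efficiencies of 0.876 and 0.860 in control and 0.765 and 0.767 in *Son* siRNA libraries. This likeness rests on *Exosc5* efficiencies that the little-used donor lowers.

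Exosc7 had gene efficiencies of 0.955 and 0.960 in control and 0.942 and 0.935 in *Son* siRNA libraries (log2 odds ratio 0.53, SE 0.30, adjusted p = 0.459). Among the cap genes, *Exosc1* was at 0.919 and 0.909 beside 0.899 and 0.898 (0.28, SE 0.26, adjusted p = 0.822). These gaps were small but larger than the distance between libraries of a group. *Exosc2* was at 0.929 and 0.922 beside 0.926 and 0.922, and *Exosc3* at 0.797 and 0.847 beside 0.824 and 0.816. Both genes overlapped between groups, with log2 odds ratios of 0.04 and 0.02.

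Exosc4, another barrel subunit, had the lowest and most variable efficiency of the 10 genes, summed over its listed introns. Its efficiencies were 0.671 and 0.565 in control and 0.731 and 0.554 in *Son* siRNA libraries, so replicate number 1 was high in both groups. It rested on 2 introns with 50 to 56 unsplit and 65 to 152 split reads per library, and its interval for the log2 odds ratio ran from -1.19 to 0.82. *Exosc4* intron 1 (chr15:76212013-76213229), of the model ENSMUST00000167515, had 0 split reads at its own donor in all 4 libraries against 18 to 56 at its 3′ end, which allows a share of up to 5.36% to 16.7%. The 19 to 39 unsplit reads per library at that donor lower the summed efficiency. Intron 1 was at 0.548 and 0.346 in control and 0.667 and 0.368 in *Son* siRNA libraries. Intron 2, of the main transcript, was at 0.800 and 0.746 beside 0.774 and 0.792, a narrower spread. *Exosc8* (0.901 and 0.896 beside 0.889 and 0.910) and *Exosc9* (0.972 and 0.953 beside 0.969 and 0.975) overlapped between groups.

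The nucleases were the best covered genes, with 22 tested introns in *Exosc10* and 16 in *Dis3*. *Exosc10* had gene efficiencies of 0.964 and 0.955 in control and 0.956 and 0.955 in *Son* siRNA libraries. The log2 odds ratio was 0.15, with a 95% interval from -0.28 to 0.58. The *Exosc10* sums also include unsplit reads at ends that few split reads used. At the entry into the rare exon described below, these were 52 and 50 in control and 48 and 39 in *Son* siRNA libraries. All unsplit reads of the gene were 583 and 487 beside 608 and 472. *Dis3*, the main processive nuclease of the complex, was at 0.954 and 0.939 beside 0.953 and 0.947, with a log2 odds ratio of -0.08 and an interval from -0.51 to 0.35. Both genes overlapped between groups, and their introns lay on both sides of 0: 12 of 22 and 8 of 16 had a log2 odds ratio above 0. The groups separated towards lower efficiency in 6 *Exosc10* and 3 *Dis3* introns, and towards higher efficiency in 0 and 4. Over all introns, 24.3% separated towards lower efficiency.

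**Figure D2:**
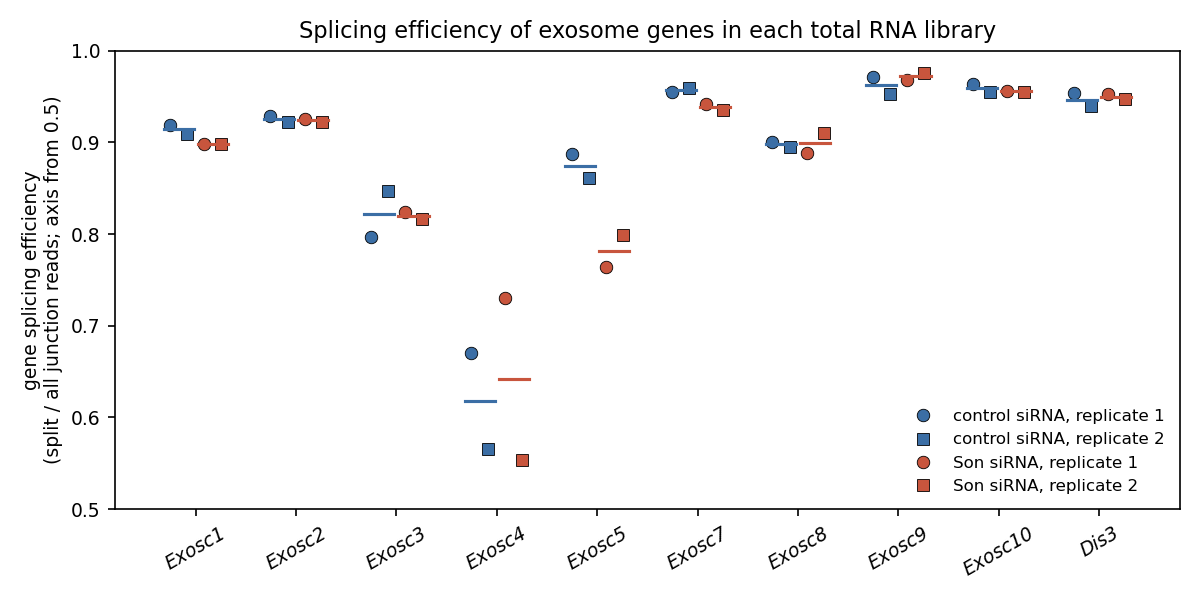
Splicing efficiency of each exosome gene (split reads over all junction reads, summed over its listed introns; axis from 0.5 to 1) in the 2 control and 2 *Son* siRNA total RNA libraries. Points are libraries and bars group means. *Exosc5* lay between 0.861 and 0.887 in control and between 0.764 and 0.799 in *Son* siRNA libraries, *Exosc4* spread most within groups, and *Exosc10* and *Dis3* stayed between 0.939 and 0.964. The *Exosc4* and *Exosc5* values are lowered by unsplit reads at donors with few or no split reads. The *Exosc10* values also include unsplit reads at rarely used ends.

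A rare *Exosc10* exon had different counts in the groups. GENCODE M21 annotates a 110-nt exon between exons 6 and 7 of the main transcript, in the nonsense-mediated decay model ENSMUST00000150723, whose coding part ends after 31 bases of the exon. The 3 junctions that show its use are printed with the downstream exon in capitals (GENCODE M21 transcripts, GRCm38, 15 bases on each side).
*Exosc10* exon 6 joined to exon 7: ggtggagcaggacatGTTTGCACACCCTTA
*Exosc10* entry into the rare exon: ggtggagcaggacatGCTGGCCTCAAACTT
*Exosc10* exit from the rare exon: cgccctcctgcccagGTTTGCACACCCTTA

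Summed over both junctions, split counts at the rare exon were 25 of 856 and 13 of 487 in control. After *Son* siRNA they were 1 of 682 and 4 of 498. Those are shares of 2.92% (95% Clopper-Pearson interval 1.90 to 4.28) and 2.67% (1.43 to 4.52) in control, and 0.147% (0.00371 to 0.814) and 0.803% (0.219 to 2.04) after *Son* siRNA. Both *Son* siRNA libraries were below both controls. The mean share was 2.79% ± 0.18 (SD, n = 2) in control and 0.475% ± 0.46 (SD, n = 2) after *Son* siRNA. An exact two-sided permutation test gave p = 0.333, the smallest that 2 libraries against 2 allow. The exon was chosen after its values were seen, and the share of rare junctions in all genes that separate the groups was not measured. In long reads its model ENSMUST00000150723 had 1 read in each library (0.325 and 0.533 CPM), too few for a comparison. Intervals here cover counting error only, since reads were not counted by molecular identifiers. A read can be counted at both junctions, so the intervals of these summed counts are too narrow. At the entry alone, counts were 17 of 423 and 5 of 235 in control, beside 0 of 338 and 4 of 249. At the exit alone they were 8 of 433 and 8 of 252 in control, beside 1 of 344 and 0 of 249.

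A second rare *Exosc10* junction did not separate the groups. The nonsense-mediated decay model ENSMUST00000097781 extends exon 15 by 60 nt, and the junctions to exon 16 differ only upstream, again with the shared exon in capitals.
*Exosc10* main donor of exon 15: ctgcctagcgccgagAGATTGGAGAATGAT
*Exosc10* extended donor of exon 15: cacagcccctgacagAGATTGGAGAATGAT
Split reads from the extended donor were 12 of 633 and 9 of 420 in control and 10 of 489 and 11 of 368 in *Son* siRNA libraries, or 1.90%, 2.14%, 2.04% and 2.99%.

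**Figure D3:**
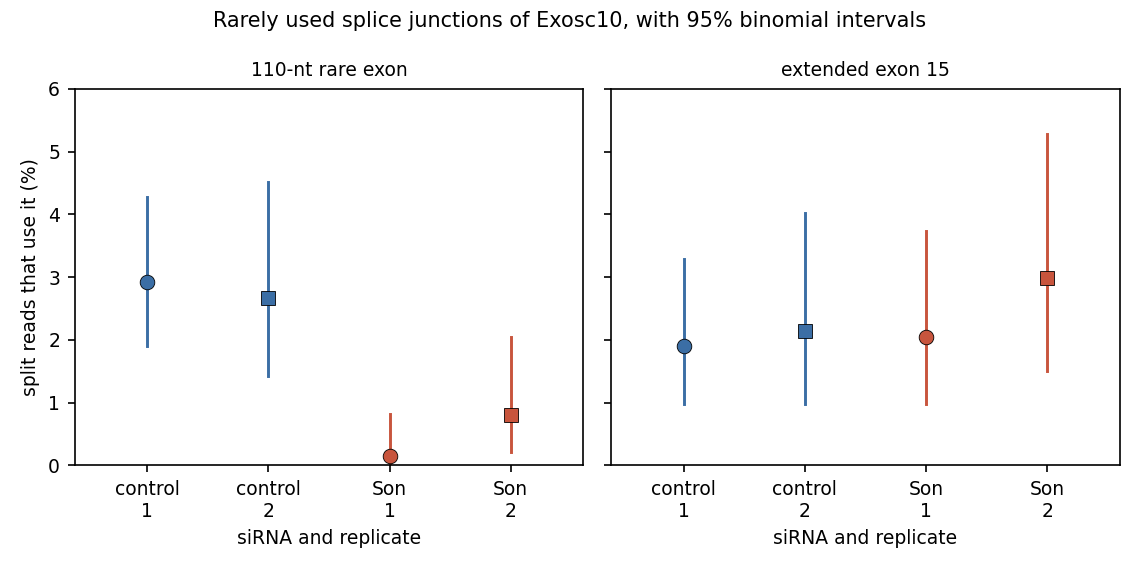
Share of split reads (%) that use the 110-nt rare exon of *Exosc10* (left) and the extended exon 15 (right) in each total RNA library, with 95% Clopper-Pearson intervals for counting error. Rare-exon counts are summed over both junctions, where a read can be counted at each, so those intervals are too narrow. The rare exon took 2.92% and 2.67% of split counts in control and 0.147% and 0.803% in *Son* siRNA libraries. The extended exon 15 lay between 1.90% and 2.99% in all 4.

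Spliced reads were compared next, as a measure of mature RNA. Of the 9 exosome genes with enough split reads at 5′ junctions, 0 passed an adjusted p of 0.05 (edgeR quasi-likelihood test, smallest adjusted p = 0.232), where 8.72% of the 9474 genes tested passed, and DESeq2 also called 0. *Exosc7* alone had an unadjusted p under 0.05, which 19.7% of all genes reached. The log2 fold changes were above 0 in 4 genes and below 0 in 5, with a median of -0.10 beside 0.01 over all genes. The groups did not overlap in *Exosc10* and *Dis3*, and 48.6% of all genes had groups without overlap.

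Summed over their listed 5′ junctions, the nucleases had lower spliced reads in both *Son* siRNA libraries, by small amounts. *Exosc10* was at 486 and 485 CPM in control and 437 and 468 CPM in *Son* siRNA libraries (log2 fold change -0.10, SE 0.07, adjusted p = 0.460). *Dis3* was at 495 and 465 CPM beside 413 and 463 CPM (log2 fold change -0.13, SE 0.075, adjusted p = 0.349). On the best covered intron alone, the *Exosc10* log2 fold change was larger, at -0.42 (edgeR quasi-likelihood test, adjusted p = 0.0822). That of *Dis3* was -0.098 (adjusted p = 0.817).

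In the barrel, *Exosc7* was at 59.2 and 73.8 CPM in control and 60.0 and 49.7 CPM in *Son* siRNA libraries, which overlap. Its log2 fold change was -0.27 (SE 0.12, 95% interval -0.53 to -0.01, adjusted p = 0.232). *Exosc9* was at 51.6 and 48.7 CPM beside 50.4 and 63.3 CPM (log2 fold change 0.17), and *Exosc8* at 33.5 and 33.9 beside 30.5 and 38.2 CPM (log2 fold change 0.02). *Exosc4* had 21 to 48 such reads per library and a log2 fold change of 0.31 with an interval from -0.40 to 1.02.

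In the cap, *Exosc1* was at 91.5 and 89.9 CPM in control and 74.9 and 92.5 CPM in *Son* siRNA libraries (log2 fold change -0.12, SE 0.11, adjusted p = 0.596). *Exosc2* was at 29.0 and 25.1 beside 27.9 and 29.6 CPM, and *Exosc3* at 9.57 and 13.1 beside 10.2 and 9.91 CPM. Their log2 fold changes were 0.08 and -0.16, with groups that overlap.

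*Exosc5* could not be tested on 5′ junctions, since its listed donor had only 1, 5, 0 and 0 split reads. On 3′ junctions its log2 fold change was -0.30 (SE 0.17, 95% interval -0.65 to 0.05, adjusted p = 0.353).

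Leaving out 1 *Son* siRNA library changed which exosome genes passed by spliced reads. The spread then comes from the control pair, and the lone library is assumed to vary like it. Without replicate 2, 12.0% of all genes passed, among them *Exosc1* at -0.28 (adjusted p = 0.0359), *Exosc10* at -0.15 (adjusted p = 0.0392) and *Dis3* at -0.22 (adjusted p = 0.00118). Without replicate 1 the same genes were at 0.028, -0.055 and -0.054 (adjusted p = 0.878, 0.526 and 0.538). Without replicate 1, 23.1% of all genes passed, among them *Exosc7* at -0.41 (adjusted p = 0.00299) and *Exosc9* at 0.33 (adjusted p = 0.0202). Without replicate 2 those were at -0.14 and 0.0048 (adjusted p = 0.488 and 0.988), and *Exosc7* was at -0.11 without control replicate 2. No exosome gene passed in both fits.

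**Figure D4:**
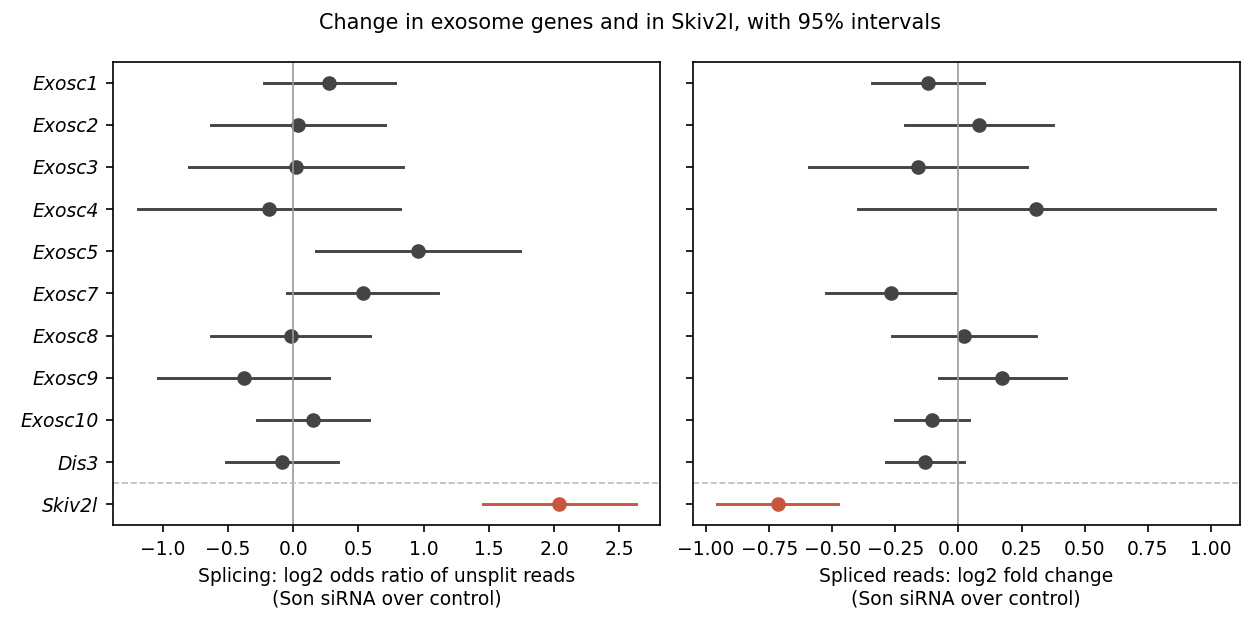
Change of each exosome gene and of *Skiv2l* after *Son* siRNA: left, the gene's log2 odds ratio of unsplit reads, and right, the log2 fold change of its spliced reads, each with its 95% interval from edgeR. Grey marks genes that did not pass an adjusted p of 0.05 and red those that did. *Skiv2l* stands apart at 2.04 and -0.72, and *Exosc5* has no point on the right because its 5′ junction had too few split reads.

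Levels were compared between genes per 5′ junction, leaving out the rarely used donors (2 in *Exosc10*, 1 in *Exosc4* and the only one of *Exosc5*, which therefore has no level here), a choice made after the values were seen. Averaged over listed donors, *Dis3* had the highest spliced-read level, with a control mean of 30.0 CPM. It was followed by *Exosc10* (23.1), *Exosc1* (22.7), *Exosc8* (16.9), *Exosc7* (13.3), *Exosc9* (12.5), *Exosc2* (6.77), *Exosc3* (5.68) and *Exosc4* (2.19). The 4 libraries of *Dis3* (25.8 to 30.9 CPM) did not overlap those of *Exosc10* (20.8 to 23.1 CPM) or *Exosc1* (18.7 to 23.1 CPM). The ranges overlapped for *Exosc10* with *Exosc1*, *Exosc1* with *Exosc8* (15.2 to 19.1 CPM), *Exosc8* with *Exosc9* (12.2 to 15.8 CPM), *Exosc9* with *Exosc7*, and *Exosc2* with *Exosc3*. *Exosc4* (2.02 to 3.25 CPM) lay below the others. These ranges hold the spread between libraries, not between the donors of a gene. In control replicate 1, split reads per listed donor ran from 19 to 306 in *Exosc2* and from 80 to 1173 in *Dis3*. The order therefore depends on which introns were listed, such as 2 of the 10 in the main *Exosc8* transcript.

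Long reads of polyadenylated RNA were compared as values, with 1 library per group and therefore no test. The labels name the same *Son* siRNA sample as the source of both libraries, the control included, so their relation to the total RNA samples is unclear. *Exosc2* was by far the most abundant exosome gene in long reads, at 1581 CPM in the control library (95% Poisson interval 1537 to 1626) and 1964 CPM in the *Son* siRNA library (1901 to 2029), from 4869 and 3683 reads, a log2 ratio of 0.31 (counting interval 0.25 to 0.38). Its main coding transcript ENSMUST00000038474 took 4861 and 3680 of them. In spliced reads per 5′ junction, averaged over its 4 listed donors, *Exosc2* had ranked below *Dis3*, *Exosc10*, *Exosc1*, *Exosc8*, *Exosc7* and *Exosc9*. GENCODE M21 places the antisense gene *Gm13427* over *Exosc2*.

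*Exosc5* was at 181 CPM in control (166 to 197) and 146 CPM after *Son* siRNA (129 to 164), from 558 and 273 reads, a log2 ratio of -0.31 with a counting interval from -0.53 to -0.10. *Dis3* was at 20.5 CPM (15.7 to 26.2) and 12.3 CPM (7.78 to 18.4), from 63 and 23 reads, a log2 ratio of -0.72 (-1.49 to -0.03). For both genes the ratio's counting interval lay below 0, but no replicate stands behind either.

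The log2 ratios of the other genes had intervals that include 0. *Exosc7* was at 96.7 and 100.3 CPM, *Exosc8* at 83.8 and 79.5, *Exosc1* at 66.2 and 70.9, *Exosc4* at 54.9 and 62.9, and *Exosc9* at 52.6 and 54.9 CPM. *Exosc3* (38.0 and 42.1 CPM) and *Exosc10* (38.3 and 36.8 CPM) lay close together. *Exosc6*, the barrel subunit that no splicing table lists, was at 7.47 and 9.07 CPM from 23 and 17 reads. The median log2 ratio of the 10 genes was 0.06, beside -0.01 over all genes with at least 20 reads. None of the 10 was 2-fold apart, where 6.37% of those genes were.

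**Figure D5:**
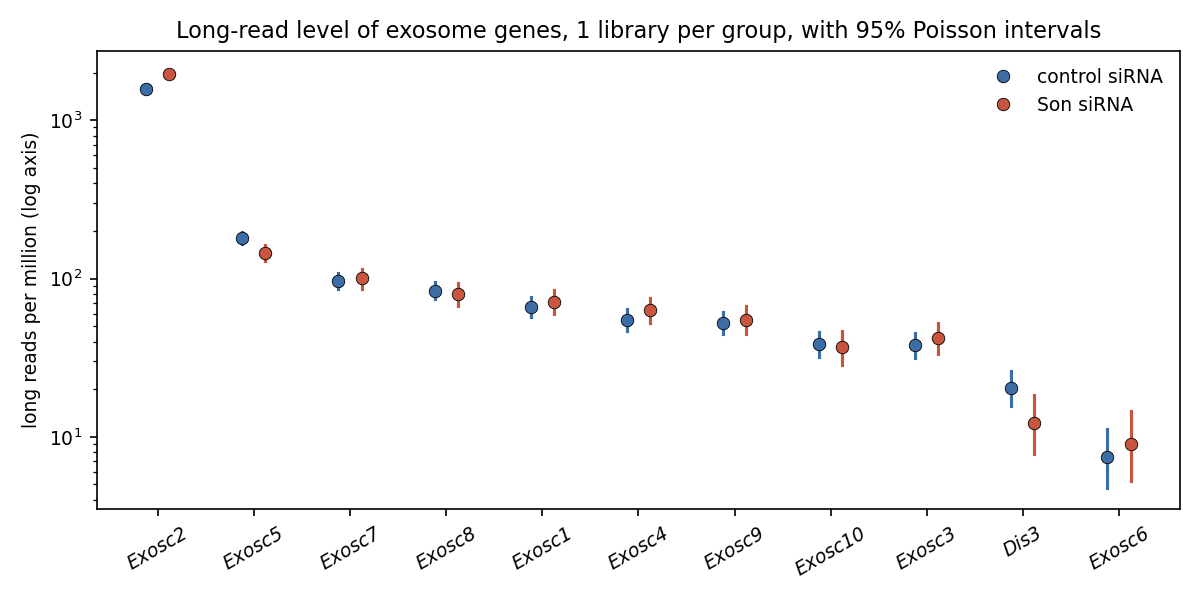
Long reads in CPM (log axis) of each exosome gene, ordered by the control library, in the 1 control and 1 *Son* siRNA library, with 95% Poisson intervals for counting error. *Exosc2* stands above all others at 1581 and 1964 CPM, and *Dis3* and *Exosc6* are lowest, between 7.47 and 20.5 CPM.

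Among exosome transcripts, 14 of 63 had at least 20 long reads over both libraries. Of these, 1 was at least 2-fold higher in the *Son* siRNA library and 0 were at least 2-fold lower, where 9.13% of the 13807 transcripts of all genes were 2-fold apart (3.32% higher and 5.8% lower). The transcript was *Exosc10* ENSMUST00000076022, a coding model that lacks the 75-nt exon 19 of the main transcript, with 11 reads in the control and 20 in the *Son* siRNA library (3.57 and 10.7 CPM, log2 ratio 1.55, counting interval 0.45 to 2.79). The main coding transcript ENSMUST00000017408 had 82 and 43 reads (26.6 and 22.9 CPM). The junctions after exon 18 tell the models apart, with the downstream exon in capitals.
*Exosc10* exon 18 joined to exon 19: aacccatttcggatgTTCCTGCCTTCTCTG
*Exosc10* exon 18 joined to exon 20: aacccatttcggatgATCAGCAACCGCTGG
Among reads of the full-length *Exosc10* models, 11 of 110 were assigned to the model without exon 19 in the control library (Clopper-Pearson interval 5.10% to 17.2%). In the *Son* siRNA library 20 of 66 were (30.3%, 19.6% to 42.9%). These totals include the processed transcript ENSMUST00000173154, which had 15 reads in the control and 2 in the *Son* siRNA library. Its log2 ratio was -1.92 (counting interval -5.36 to -0.09), on too few reads for the 20-read minimum. Against the main coding transcript alone, the shares were 11 of 93 (11.8%, 6.05% to 20.2%) and 20 of 63 (31.7%, 20.6% to 44.7%). The 2 coding models, of 2790 and 2682 nt, differ by more than this exon. Which difference placed the reads was not tested, and the introns on either side of exon 19 were not listed in total RNA.

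*Exosc5* had long reads on a coding and on a retained-intron model. Its main coding transcript ENSMUST00000079634 had 440 and 196 reads, or 143 CPM (130 to 157) in control and 105 CPM (90.4 to 120) after *Son* siRNA, a log2 ratio of -0.45 (-0.70 to -0.20). The retained-intron model ENSMUST00000205275, of 5068 nt, had 105 and 71 reads, or 34.1 CPM (27.9 to 41.3) and 37.9 CPM (29.6 to 47.8). Of the reads on these 2 models, the retained-intron model took 19.3% (16.0 to 22.8) in control and 26.6% (21.4 to 32.3) after *Son* siRNA, with intervals that overlap. The intron listed in the splicing tables is not one that this model retains. In *Exosc7*, retained-intron models took 5 of 298 reads (1.68%, 0.547 to 3.87) and 9 of 188 reads (4.79%, 2.21 to 8.89), with intervals that also overlap.

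Coding transcripts of *Exosc1*, *Exosc3*, *Exosc4*, *Exosc7*, *Exosc8* and *Exosc9* had log2 ratios from -0.10 (*Exosc8* ENSMUST00000029316) to 0.22 (*Exosc4* ENSMUST00000059045), and the *Exosc9* retained-intron model ENSMUST00000138636 had 25 and 15 reads. The *Dis3* coding transcript ENSMUST00000042471 had 35 and 13 reads, a log2 ratio of -0.68 with an interval from -1.75 to 0.24. Over all 10 genes, retained-intron models took 2.89% of reads in control and 2.86% after *Son* siRNA, beside 6.24% and 6.64% of all annotated reads. Without *Exosc2*, which supplies most reads, they took 9.76% (8.48 to 11.2) and 11.9% (10.1 to 13.9).

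The partners of the exosome were read from a list of 26 genes, of which 22 could be tested in total RNA. Of these, 1 passed both gene tests and no other passed either, where 7.11% of all genes passed by efficiency and 8.72% by spliced reads. *Skiv2l*, the helicase of the SKI complex that feeds mRNA to the cytoplasmic exosome, had efficiencies of 0.975 and 0.941 in control and 0.873 and 0.834 in *Son* siRNA libraries. Its log2 odds ratio was 2.04 (SE 0.30, adjusted p = 2.11e-09). Spliced reads of *Skiv2l* were 60.4 and 58.2 CPM in control and 37.3 and 34.7 CPM after *Son* siRNA, and fell by 0.72 on the log2 scale (SE 0.11, adjusted p = 0.000219), although on its best covered intron alone the log2 fold change was -0.41 (adjusted p = 0.520).

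Of 294 introns tested in the partner genes, 3 passed towards lower efficiency and 0 towards higher, where 1.71% of all introns and 6.52% of those of up to 283 nt passed towards lower. All 3 lay in *Skiv2l* (ENSMUST00000046022) and were short. Intron 9 (chr17:35065644-35065842, 199 nt) went from 0.965 and 0.916 to 0.480 and 0.494, with a log2 odds ratio of 4.19 (SE 0.65, adjusted p = 2.82e-06). Intron 7 (chr17:35066301-35066383, 83 nt) went from 0.938 and 0.893 to 0.639 and 0.534, and intron 23 (chr17:35059697-35059833, 137 nt) from 0.956 and 0.838 to 0.702 and 0.655. In long reads *Skiv2l* had 34 and 10 reads, with Poisson intervals of 7.64 to 15.4 and 2.56 to 9.81 CPM.

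The other SKI subunits, *Ttc37* and *Wdr61*, the nuclear exosome helicase *Mtrex*, its adaptors *Zcchc8* and *Zfc3h1*, the cap-binding and ARS2 genes *Ncbp1*, *Ncbp2* and *Srrt*, and the 5′ to 3′ nucleases *Xrn1* and *Xrn2* did not pass. Over the partners other than *Skiv2l*, gene log2 odds ratios ran from -0.32 to 0.57 and spliced-read log2 fold changes from -0.23 to 0.24. The medians over the 22 tested partners were 0.02 and 0.04. *Exosc6*, *C1d*, *Rbm7* and *Pabpn1* had no intron listed in all 4 libraries.

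Reads of overlapping genes limit a few of these values, since strand-specific counting is not stated in the sources used here. By GENCODE M21, 3 of the 63 exosome introns listed in all 4 libraries have an end inside a gene on the other strand: 2 in *Exosc2*, under *Gm13427*, and 1 in *Exosc4*, under *Oplah*. Unsplit reads of these introns are uncertain. *Exosc3*, *Exosc5*, *Exosc8*, *Exosc9*, *Exosc10* and *Dis3* overlap a gene on the other strand only away from the ends of their listed introns, as *Exosc5* overlaps *Tmem91*. *Skiv2l* overlaps *Dxo*, on the other strand, by 6 bases.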

How the data were processed

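Per the labels, the authors ran SPLICE-q on each total RNA library and deposited, for the 5′ and 3′ junction of each intron, counts of reads that cross it split or unsplit. A deposited score gives the splicing efficiency as a fraction from 0 to 1. Per the labels, the long-read files hold the authors' counts of reads per transcript. The submitters' processing notes name GRCm39, SAMtools and minimap2. Annotation, strand and the aligner of total RNA are not given in the sources used here.

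Introns repeated for several transcripts were merged. Checked on the files, the deposited fraction equals split over all junction reads, and listed junctions have at least 10 reads. Introns listed in all 4 libraries, with at least 10 split and 10 unsplit reads in sum, were tested with edgeR 4.0.16 (glmQLFit, a term per library, for unsplit reads and for unsplit reads in the knockdown) on the whole table, as were gene sums. Split reads at 5′ junctions were tested with TMM and filterByExpr. P-values were Benjamini-Hochberg adjusted over all features (threshold 0.05). DESeq2 1.42.0 and limma 3.58.1 were alternatives. The tests were tried on simulated data. Long-read log2 ratios had 0.5 reads added to each count and needed 20 or more reads in sum. Splicing-table coordinates are GRCm39. Transcript models and printed junctions come from GENCODE M21 (GRCm38), whose coordinates were not used, and 63 of 63 introns compared had equal lengths in both.

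All 10 genes are named, with 1 intron each (largest change in mean efficiency with at least 50 reads per library), introns called, transcripts with at least 20 reads and partner genes called. The members and lists were chosen with earlier results of these data known. Both long-read labels name the same knockdown sample as starting material, so the assays were not paired.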

Additional observations from a re-analysis of the deposited data

How the results depend on the processing

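Every alternative left 0 exosome introns and 0 exosome genes called by splicing efficiency. Calls by spliced reads ranged from 0 to 3 of the exosome genes when a library was left out, and were 0 under the other alternatives. Over all genes the counts moved more. Introns called were 1112, and 232 on the 5′ junction alone, 322 on the 3′ junction alone, 285 with DESeq2, 0 with limma (5696 at an unadjusted p under 0.05) and 171 to 1427 without a library. Genes called by efficiency were 666, and 180 to 702 without a library. Genes called by spliced reads were 826, and 314 on the best covered intron and 381 to 2193 without a library. Transcripts 2-fold apart in long reads were 1260, and 599 with a pseudocount of 5 reads and 346 with at least 50 reads. The 1 exosome transcript remained with the larger pseudocount and left 0 at 50 reads. The cause of these moves was not tested.

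Same-numbered samples did not vary together from feature to feature (correlation of same-numbered deviations 0.0085 over introns and 0.0017 over genes). This correlation cannot see a shift shared by a whole library, so it does not settle whether the replicate numbers pair the samples. Replicate 1 had more split reads at 5′ junctions in both groups. It had 16012286 (control) and 14978479 (*Son* siRNA), beside 10640247 and 10556187 in replicate 2. With the replicate block 1018 genes were called by efficiency and 1626 introns, none in the exosome, and 1000 genes by spliced reads.

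Scaling split and unsplit columns separately shifted the medians: log2 odds ratios centred on -0.01 over all introns, in place of 0.12, and on -0.11 over exosome introns, in place of 0.03. Signs changed only in uncalled values. Under that scaling the gene log2 odds ratio was -0.085 for *Exosc2* and -0.10 for *Exosc3*. Without the intron with most unsplit reads it was -0.33 for *Exosc2* and 0.14 for *Exosc8*. On the 5′ junction *Exosc3* intron 1 was at -0.36 and *Exosc7* intron 6 at 0.10, and on its best covered intron the spliced-read change of *Exosc2* was -0.034. Without a library, intron log2 odds ratios ran from -0.25 to 0.89 (*Exosc3* intron 1), -1.25 to 0.52 (*Exosc4* intron 1), -0.56 to 0.045 (*Exosc7* intron 6), -0.33 to 0.13 (*Exosc8* intron 8) and -1.31 to 0.35 (*Exosc9* intron 9). Gene log2 odds ratios ran from -0.044 to 0.10 (*Exosc2*), -0.21 to 0.28 (*Exosc3*), -0.72 to 0.40 (*Exosc4*), -0.20 to 0.15 (*Exosc8*), -0.0084 to 0.31 (*Exosc10*) and -0.29 to 0.12 (*Dis3*). Spliced-read changes ran from -0.28 to 0.028 (*Exosc1*), -0.015 to 0.19 (*Exosc2*), -0.39 to 0.069 (*Exosc3*), -0.11 to 0.58 (*Exosc4*) and -0.14 to 0.18 (*Exosc8*). *Exosc5* stayed above 0 in gene log2 odds ratio, from 0.78 to 1.13 without a library, with adjusted p from 0.0744 to 0.872 over its alternatives. The share of the rare *Exosc10* exon differed by -2.32 percentage points (*Son* siRNA minus control) and by -2.65 to -1.99 points without a library, an alternative chosen after seeing the data. *Skiv2l* stayed called in gene log2 odds ratio under every alternative, from 1.44 to 2.71. Depth limits *Exosc4*, with 50 to 56 unsplit reads per library, and the *Dis3* long reads, 63 and 23 in number.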
